A study of Homo sapiens with 6 samples.

Results

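The cytochrome P450 genes followed here are the 55 rows whose names are built from CYP, a family number, a subfamily letter and a gene number, with CYP51A1 set apart. They were taken from a table of 59332 distinct gene names, and each stood on 1 row. Another 53 rows with names starting CYP, among them pseudogenes ending in P, were left out by that rule. CYP2D7 was kept for its name, although GENCODE 29 types it as a polymorphic pseudogene.

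SW480 cells, a long-established line from a human colorectal cancer, were profiled by paired-end RNA-seq in 6 libraries. Of these, 3 carried the genotype label of HNF4a overexpression and the titles lenti-HNF4a, and 3 had the genotype label control and the titles lenti, which points to a lentiviral vector without HNF4a. Both groups were grown in RPMI1640 with fetal bovine serum and antibiotics. The labels name neither the promoter that drives HNF4A nor whether each group was a clone or a pool. Nothing states that the 3 cultures of a group were transduced separately, so the p-values below may measure only the spread between cultures of the same population.

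Levels are given as FPKM, fragments scaled by transcript length and by the total of the library, so they can be compared between genes of different length. Read totals are not known from this unit, and the precision set by depth is therefore unknown. The FPKM values of a library summed to 615594 to 652879, and 13905 to 14213 rows reached 1 FPKM. HNF4A, a nuclear receptor and transcription factor of liver, kidney and gut epithelium, was at 1143, 720.6 and 852 FPKM in the overexpression libraries, against 8.81, 6.57 and 7.47 FPKM in the control libraries. All 3 overexpression libraries stood above every control library, by 119-fold on the means (exact two-sided permutation p = 0.1, the smallest that 3 against 3 allows). Of 9 colorectal epithelium markers 6 were at or above 1 FPKM in every library, while KRT20, CEACAM5 and LGALS4 stayed at or below 0.499 FPKM. Of 6 hepatocyte markers the highest value in any library was 0.267 FPKM (ALB), and APOA2 and F9 were listed at 0. The summed level of 4 leukocyte markers was 3.51 to 3.91 FPKM in overexpression libraries and 0.771 to 1.40 FPKM in control libraries, most of it CD68 and LYZ, with PTPRC at or below 0.0860 FPKM. The sum of 6 fibroblast markers was 3.43 to 3.63 FPKM in overexpression libraries and 2.18 to 2.90 FPKM in control libraries, most of it COL1A1. The part of these markers in the values below was not tested.

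P450 enzymes are haem-containing monooxygenases that insert an oxygen atom into lipids, hormones, vitamins, drugs and pollutants. Most sit in the endoplasmic reticulum and receive electrons from the reductase POR, and a few sit in mitochondria and receive them through ferredoxin FDX1 and its reductase FDXR. In hepatocytes HNF4A is known to bind and activate several of these genes, among them drug-metabolizing members of families CYP2 and CYP3 and bile acid genes such as CYP7A1 and CYP8B1. In the gut, CYP3A enzymes of mature enterocytes oxidize drugs on their way in, CYP1A1 answers ligands of the receptor AHR, and CYP24A1 degrades active vitamin D.

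Promoter letters known to be bound by HNF4 receptors were looked up in RefSeq windows (GRCh38.p14, 250 bases before to 50 after the annotated start), which were given for 38 of the 55 genes. The letters CAAAGTCCA, searched on both strands, occurred in 135 of 35116 windows of this length, or 0.384%. By gene, that was 129 of 27305 genes, or 0.472%, and 6 of the 38 P450 genes. The stretches are shown because 5 of these 6 P450 genes were at or near 0 in these cells and 1 was expressed. Of all 55 P450 genes, 42 did not reach the level needed for a test. Capitals mark the letters found, as they read on the strand of the gene, and the CYP2A7 stretch is shorter because an annotated exon overlaps its window.

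CYP2A6: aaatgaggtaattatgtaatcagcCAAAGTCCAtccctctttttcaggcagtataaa

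CYP2A7: tgtaattagcCAAAGTCCAtccctctttt

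CYP2A13: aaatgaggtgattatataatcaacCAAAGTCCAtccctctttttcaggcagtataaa

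CYP2B6: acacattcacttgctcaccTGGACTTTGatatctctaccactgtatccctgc

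CYP2C8: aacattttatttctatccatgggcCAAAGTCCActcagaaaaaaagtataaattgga

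CYP2R1: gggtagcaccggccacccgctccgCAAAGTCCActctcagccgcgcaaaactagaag

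The CYP2A6 stretch lies at chr19:40850471-40850527 on the minus strand, that of CYP2A7 at chr19:40882269-40882297 on the minus strand and that of CYP2A13 at chr19:41088371-41088427 on the plus strand. These 3 are related copies of an ancestral gene whose stretches shown here are near-identical, so they are not separate observations. In each of them the letters begin at position -56 from the start, and in CYP2C8 (chr10:95069518-95069574, minus strand) at position -53. CYP2B6 holds them on the opposite strand, TGGACTTTG, at position -231 (chr19:40991032-40991083, plus strand). In CYP2R1 (chr11:14892365-14892421, minus strand) they begin at position -166. CYP2A6, CYP2A7 and CYP2C8 were listed at 0 in all 6 libraries. CYP2A13 and CYP2B6 were above 0 in overexpression replicate 2 alone, at 0.0158 and 0.0101 FPKM, and listed at 0 in the other 5 libraries. CYP2R1 was at 7.51 to 10.3 FPKM in overexpression libraries and 7.55 to 9.01 FPKM in control libraries.

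A related form, CAAAGTTCA, occurred in 104 windows, or 0.296%. By gene, that was 0.366% of all genes with a window and 1 of the 38 P450 genes, CYP26A1, on the opposite strand at position -90. The stretch (chr10:93073793-93073821, plus strand) is shown because it also holds the direct repeat known as the proximal retinoic acid response element of this gene. Capitals again mark the letters searched.

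CYP26A1: caattaaagaTGAACTTTGggtgaactaa

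GCGTG, the core letters bound by AHR with its partner ARNT, occurred in 36.5% of all windows, searched on both strands. By gene, that was 40.6% of all genes with a window and 12 of the 38 P450 genes, CYP1A1 among them. A match of letters is a description of the sequence and not of binding in these cells.

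Most P450 genes were at or near 0 in SW480 cells of both groups. Of the 55 genes, 13 reached 1 FPKM in at least 3 of the 6 libraries and could be tested. Another 15 reached 0.1 FPKM in some library, 19 were above 0 but never reached 0.1 FPKM, and 8 were listed at 0 in all 6 libraries. In a bulk library, fewer expressing cells and less RNA per cell cannot be told apart. Each of the 13 tested genes reached 1 FPKM in libraries of both groups. Their mean levels ran from 0.905 FPKM (CYP2J2) to 14.9 FPKM (CYP24A1), beside a median of 10.6 FPKM over all tested genes.

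**Figure D1:**
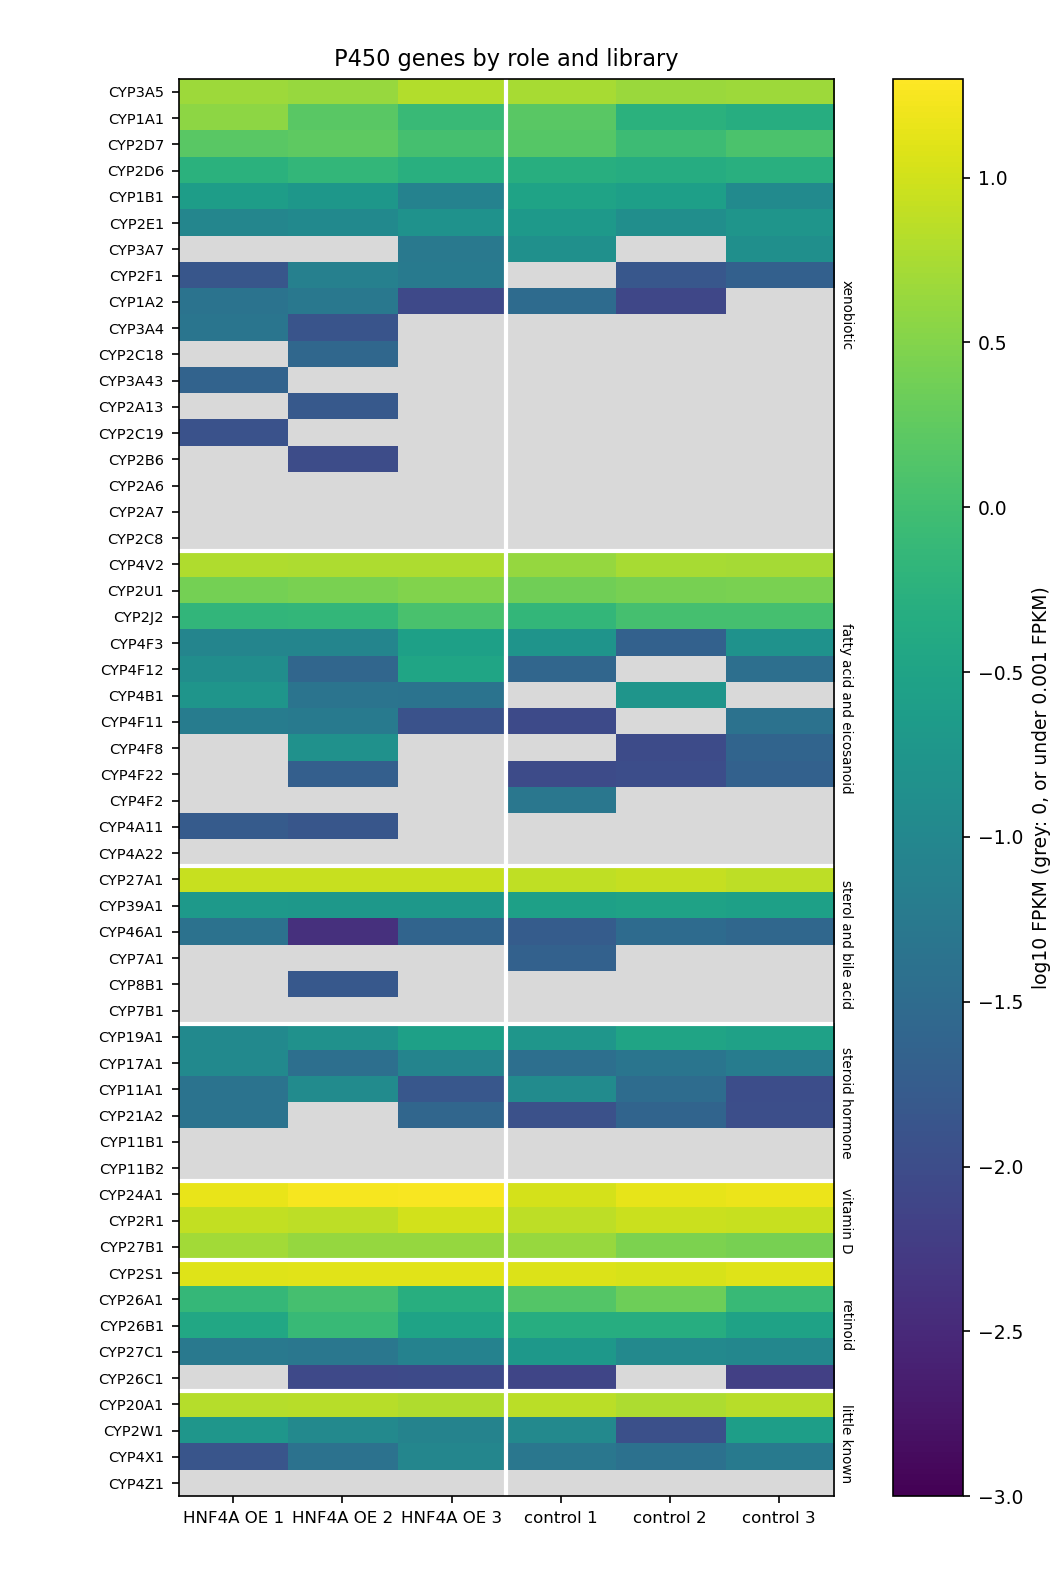
FPKM of 54 of the 55 P450 genes (rows, by role and then by mean level) in the 3 HNF4A overexpression (OE) libraries and the 3 control libraries (columns), on a log10 colour scale; grey cells are at 0 or under 0.001 FPKM. The brightest rows are among the 13 genes that could be tested, while CYP2D6 and CYP26B1, which were not tested, come near the weakest of the 13 in level. The grey blocks hold the 8 genes listed at 0 throughout.

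The summed level of the 55 genes was 78.2, 78.6 and 81.9 FPKM in the overexpression libraries, against 69.5, 71.0 and 72.0 FPKM in the control libraries. The groups did not overlap in this sum. It averaged 79.6 ± 2.00 FPKM with HNF4A overexpression and 70.8 ± 1.23 FPKM in controls (SD, n = 3 each), a description with no test. CYP24A1 made up 3.39 FPKM of the difference between the means, CYP27B1 1.23 FPKM, CYP1A1 1.15 FPKM, CYP4V2 1.00 FPKM and CYP27A1 0.894 FPKM. The other 50 genes made up the rest, CYP26A1 with a difference of -0.722 FPKM. CYP24A1, CYP2S1, CYP2R1, CYP27A1 and CYP20A1, the 5 highest, held 64.4 to 68.7% of the sum in overexpression libraries and 65.1 to 70.0% in control libraries. The 7 mitochondrial P450 genes summed to 28.5, 30.4 and 31.0 FPKM with HNF4A overexpression, against 23.1, 25.1 and 25.3 FPKM in controls. The 48 microsomal ones summed to 49.7, 48.2 and 50.9 FPKM with HNF4A overexpression, against 46.4, 45.9 and 46.6 FPKM in controls.

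**Figure D2:**
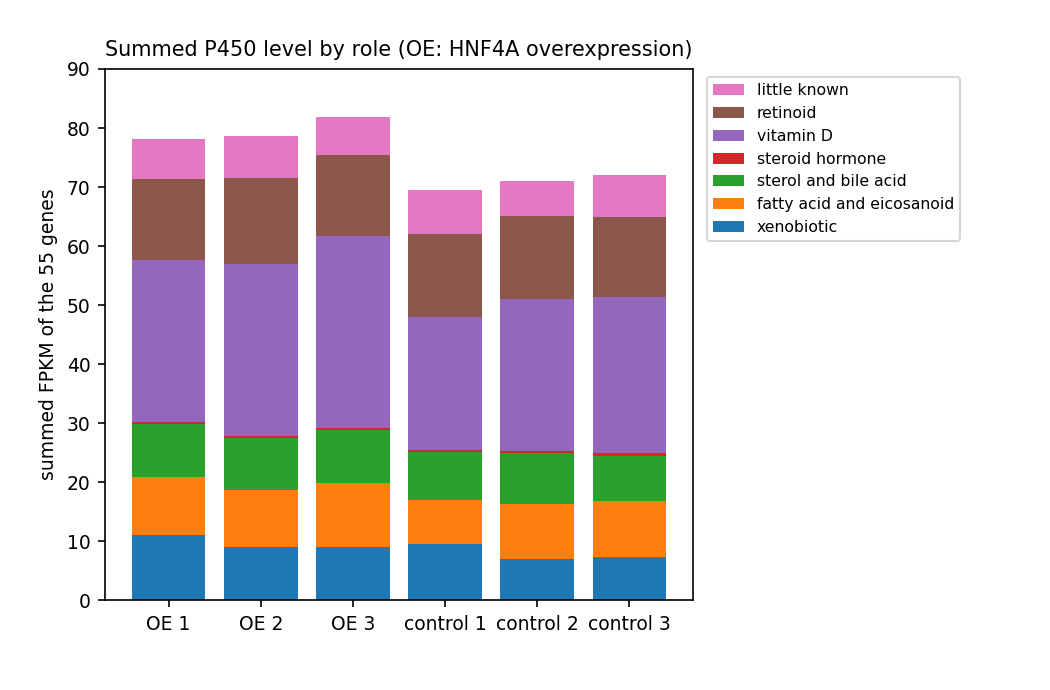
Summed FPKM of the 55 P450 genes in each library, stacked by role, with the 3 HNF4A overexpression (OE) libraries left of the 3 control libraries. The bars reach 78.2 to 81.9 FPKM in overexpression libraries and 69.5 to 72.0 FPKM in control libraries, and the vitamin D genes form the tallest block in each bar.

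No P450 gene passed the test across all genes in either direction. Differences were tested on log2(FPKM + 1) with limma over the 14106 genes that reached 1 FPKM in at least 3 libraries, and a gene was called at a Benjamini-Hochberg adjusted p under 0.05. The added 1 makes the log2 difference too small, most of all for genes near 1 FPKM and below, but also for those at a few FPKM. For CYP27B1 it was 0.38 with 1 added and 0.48 with 0.1 added. Of the 13 P450 genes 0 were called higher and 0 lower, beside 4.79% of all tested genes called (3.4% higher and 1.39% lower). With 13 genes, a count of 0 lies near that share. The limma adjusted p of the 13 ran from 0.226 to 0.991. At an unadjusted limma p under 0.05 there were 2, CYP27B1 and CYP24A1, beside 18% of all tested genes. Under the 15 alternative settings 0 to 1 were called higher, the 1 under a setting that called 4.52% of all tested genes higher, and 0 lower. The log2 difference was above 0 in 10 and below 0 in 3 of the 13, with a median of 0.09 beside 0.01 over all tested genes. In CYP27A1, CYP4V2 and CYP2S1 all 3 overexpression libraries stood above all 3 controls, beside 13.8% of all tested genes, and in 0 they all stood below, beside 10.1%.

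**Figure D3:**
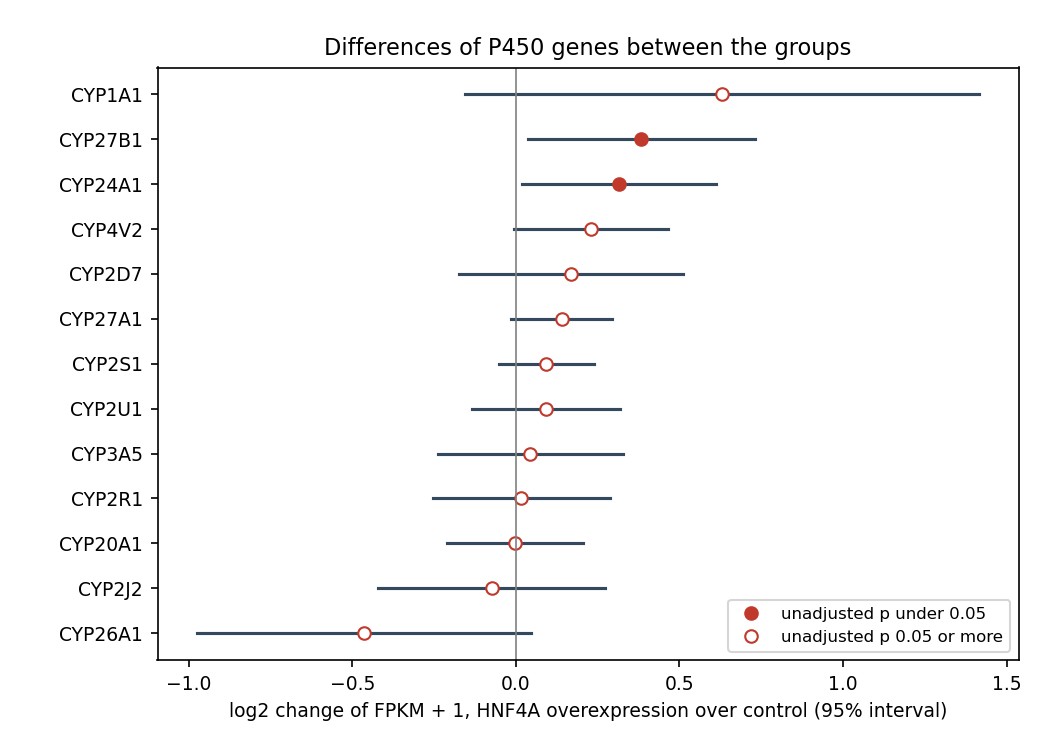
Difference of log2(FPKM + 1), HNF4A overexpression over control, for the 13 tested P450 genes, with 95% intervals of the limma fit (n = 3 each); filled points have an unadjusted p under 0.05. CYP27B1 at 0.38 and CYP24A1 at 0.32 have intervals above 0, and CYP1A1 and CYP26A1 have the widest intervals.

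The vitamin D enzymes were the most highly expressed P450 group, and all 3 could be tested. CYP24A1 (chr20:54153449-54173973, minus strand, GENCODE 29 on GRCh38), the mitochondrial hydroxylase that starts the breakdown of active vitamin D, was at 14.4, 17.5 and 18.0 FPKM with HNF4A overexpression, against 10.7, 13.95 and 15.1 FPKM in controls. The highest control library overlapped the lowest overexpression library, and replicate 1 was the lowest of each group. Its mean of 16.6 ± 1.92 FPKM with HNF4A overexpression stood beside 13.2 ± 2.31 FPKM in controls (SD, n = 3 each). The log2 difference of CYP24A1 was 0.32 (95% interval 0.02 to 0.61, limma adjusted p = 0.248). With 1 library left out it ran from 0.18 without control replicate 1 to 0.41 without control replicate 3. CYP27B1 (chr12:57762334-57768986, minus strand), which makes active vitamin D, was at 5.11, 4.22 and 4.12 FPKM with HNF4A overexpression, against 4.29, 2.81 and 2.66 FPKM in controls. Here replicate 1 was the highest of each group, and the groups overlapped through control replicate 1. The log2 difference of CYP27B1 was 0.38 (95% interval 0.04 to 0.73, limma adjusted p = 0.226), the lowest adjusted p among the P450 genes. It ran from 0.28 without control replicate 3 to 0.55 without control replicate 1, where the limma adjusted p was 0.0551. METTL1 overlaps CYP27B1 on the same strand, and 0.318% of its 100-base stretches occur in that gene. CYP2R1, the main 25-hydroxylase of vitamin D whose promoter letters are shown above, averaged 8.59 ± 1.497 FPKM with HNF4A overexpression and 8.42 ± 0.769 FPKM in controls (SD, n = 3 each). Its log2 difference of 0.02 (95% interval -0.25 to 0.29, limma adjusted p = 0.963) lay within the spread between libraries. VDR, the vitamin D receptor that controls CYP24A1, was named after its values were seen and averaged 27.4 ± 1.13 FPKM with HNF4A overexpression and 26.7 ± 0.180 FPKM in controls (limma adjusted p = 0.8005).

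Among the 6 sterol and bile acid enzymes only CYP27A1 could be tested. CYP27A1 (chr2:218781749-218815293, plus strand), the mitochondrial sterol 27-hydroxylase, was at 8.85, 8.57 and 8.79 FPKM with HNF4A overexpression, against 7.84, 8.22 and 7.46 FPKM in controls. The groups did not overlap, with a spread of 0.149 FPKM (SD) among overexpression libraries and 0.379 FPKM among controls. The log2 difference was 0.14 (95% interval -0.02 to 0.29, limma adjusted p = 0.331), a 1.11-fold ratio of the means. In the authors' deposited table, whose p-values are not adjusted, its p is 0.0191. That table gives a p for 47 P450 genes, of which 2 are under 0.05, beside 10.2% of all rows with a p.

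The second of these was CYP39A1 (chr6:46549580-46652830, minus strand), the oxysterol 7-alpha-hydroxylase of liver, whose p in the authors' deposited table is 0.000534. It lay under the level filter, at 0.205, 0.199 and 0.198 FPKM with HNF4A overexpression, against 0.274, 0.300 and 0.280 FPKM in controls. All 3 overexpression libraries stood below all 3 controls, and the ratio of the means was 0.704 in the authors' deposited table, where 169 rows have a p as low or lower. Without the filter, the limma adjusted p of CYP39A1 was 0.258 (log2 difference -0.10), with 250 of 32006 genes, or 0.781%, called. With a filter at 0.1 FPKM it was 0.545, beside 2.79% called. Other enzymes of bile acid synthesis were at or near 0, with CYP7A1, the rate-limiting cholesterol 7-alpha-hydroxylase, at 0.0214 FPKM in control replicate 1 and listed at 0 elsewhere. CYP8B1, the sterol 12-alpha-hydroxylase, was at 0.0154 FPKM in overexpression replicate 2 and listed at 0 elsewhere, and CYP7B1 was listed at 0 in all 6 libraries. CYP46A1, the cholesterol 24-hydroxylase of neurons, did not exceed 0.0417 FPKM.

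Of the 12 fatty acid and eicosanoid enzymes, CYP4V2, CYP2U1 and CYP2J2 could be tested. CYP4V2 (chr4:186191520-186213456, plus strand), a fatty acid omega-hydroxylase mutated in Bietti crystalline dystrophy, was at 6.16, 5.92 and 5.89 FPKM with HNF4A overexpression, against 4.15, 5.553 and 5.27 FPKM in controls. Every overexpression library stood above every control, with control replicate 1 the lowest of the 6. The log2 difference was 0.23 (95% interval -0.00 to 0.47, limma adjusted p = 0.287). With 1 library left out it ran from 0.13 without control replicate 1 to 0.30 without control replicate 2. KLKB1 overlaps CYP4V2 on the same strand, with 1.02% of 100-base stretches shared. CYP2U1, a hydroxylase of long-chain fatty acids, averaged 2.76 ± 0.264 FPKM with HNF4A overexpression and 2.52 ± 0.201 FPKM in controls (limma adjusted p = 0.707). CYP2J2, an epoxygenase of arachidonic acid, averaged 0.859 ± 0.283 FPKM with HNF4A overexpression and 0.952 ± 0.223 FPKM in controls (SD, n = 3 each; limma adjusted p = 0.857). CYP4F12 was at 0.130, 0.0260 and 0.340 FPKM with HNF4A overexpression, against 0.0261, 0 and 0.0377 FPKM in controls, a spread among overexpression libraries as wide as the level itself. CYP4F3, an omega-hydroxylase of leukotriene B4, lay between 0.0217 and 0.280 FPKM, CYP4B1 between 0 and 0.174 FPKM and CYP4F8 between 0 and 0.149 FPKM. CYP4A11, CYP4F2, CYP4F11 and CYP4F22 did not exceed 0.0648 FPKM, and CYP4A22 was listed at 0.

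The xenobiotic enzymes were the largest group, and 3 of the 19 passed the filter. CYP3A5 (chr7:99648194-99680026, minus strand), the CYP3A enzyme common outside the liver, was the highest, at 4.69, 4.41 and 6.26 FPKM with HNF4A overexpression, against 5.37, 4.54 and 4.77 FPKM in controls. The groups overlapped, with a log2 difference of 0.04 (95% interval -0.24 to 0.33, limma adjusted p = 0.900). CYP3A4, the main drug-metabolizing P450 of liver and gut, was at 0.0463, 0.0132 and 0 FPKM with HNF4A overexpression and listed at 0 in all 3 controls. CYP3A43 was above 0 in overexpression replicate 1 alone, at 0.0235 FPKM. CYP3A7, the fetal liver form, was at 0.0555 FPKM in overexpression replicate 3, against 0.142 and 0.136 FPKM in control replicates 1 and 3, and at or near 0 in the other 3 libraries. Its readthrough gene CYP3A7-CYP3A51P shares 37.7% of its 100-base stretches, so its level is uncertain.

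CYP1A1 (chr15:74719542-74725610, minus strand), the hydroxylase of polycyclic aromatic hydrocarbons, had the largest ratio among the tested P450 genes and one of the widest spreads. It was at 3.66, 1.59 and 0.814 FPKM with HNF4A overexpression, against 1.56, 0.564 and 0.471 FPKM in controls. Replicate 1 was the highest library of each group, and control replicate 1 was level with overexpression replicate 2. The means were 2.02 ± 1.47 FPKM with HNF4A overexpression and 0.866 ± 0.605 FPKM in controls (SD, n = 3 each), a 2.33-fold ratio. The log2 difference was 0.63 (95% interval -0.16 to 1.42, limma adjusted p = 0.393). With 1 library left out it ran from 0.26 without overexpression replicate 1 to 0.94 without overexpression replicate 3. Its residual spread was at the 99.2 percentile of all tested genes. CYP1A2, its neighbour and the main caffeine demethylase of liver, did not exceed 0.0522 FPKM. CYP1B1, an AHR-induced enzyme of many extrahepatic tissues, averaged 0.172 ± 0.0865 FPKM with HNF4A overexpression and 0.231 ± 0.103 FPKM in controls, below the filter.

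CYP2D7 was at 1.58, 1.72 and 1.08 FPKM with HNF4A overexpression, against 1.47, 0.893 and 1.20 FPKM in controls. The groups overlapped (log2 difference 0.17, 95% interval -0.18 to 0.51, limma adjusted p = 0.633), and the difference ran from 0.07 without control replicate 2 to 0.29 without overexpression replicate 3. CYP2D6, the neighbouring enzyme of many psychoactive and cardiac drugs, averaged 0.595 ± 0.0996 FPKM with HNF4A overexpression and 0.496 ± 0.0276 FPKM in controls (SD, n = 3 each). Between the 2 genes 13.3% of the 100-base stretches of CYP2D7 are identical to CYP2D6, so the share of each is uncertain. CYP2E1, the ethanol-oxidizing form, averaged 0.119 ± 0.0318 FPKM with HNF4A overexpression and 0.170 ± 0.0338 FPKM in controls. CYP2B6, CYP2A13, CYP2C18, CYP2C19 and CYP2F1 did not exceed 0.0744 FPKM, with 34.5% and 35.1% of the 100-base stretches of CYP2C18 and CYP2C19 shared with AL583836.1, and CYP2A6, CYP2A7 and CYP2C8 were listed at 0.

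**Figure D4:**
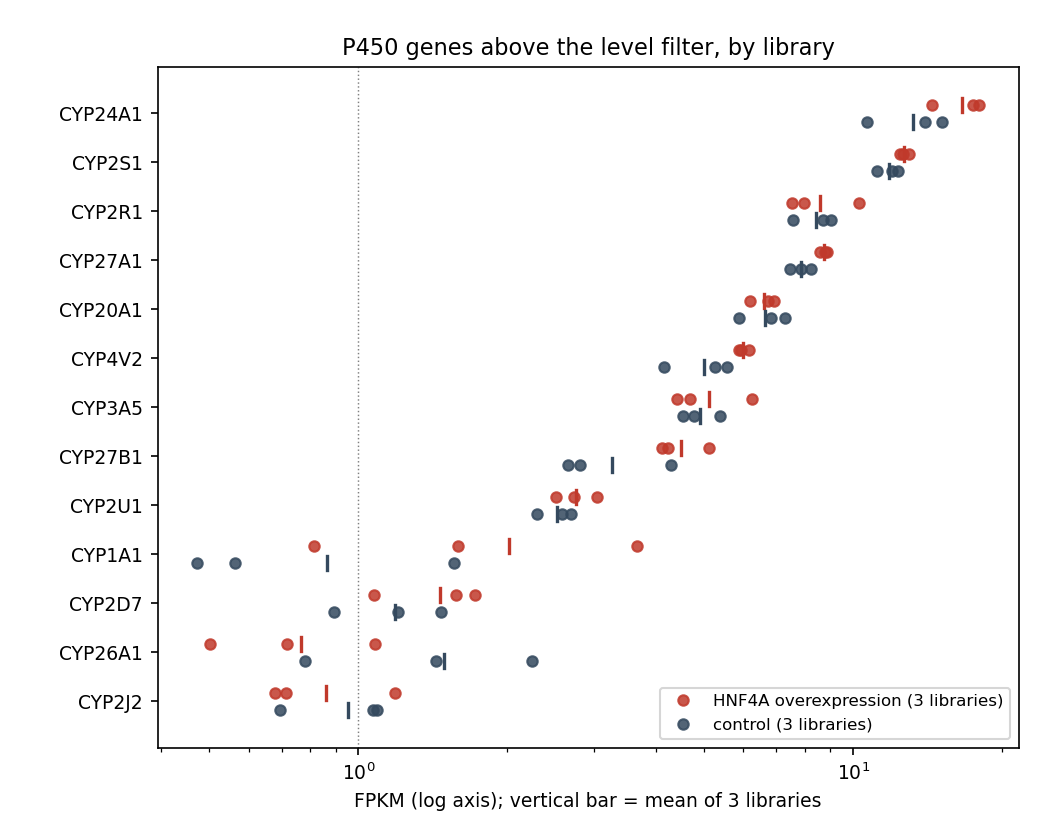
FPKM on a log axis of the 13 tested P450 genes, 3 HNF4A overexpression libraries (upper row of points) and 3 control libraries (lower row) each, with vertical bars at the means; the dotted line marks 1 FPKM. The points of the groups are apart in CYP27A1, CYP4V2 and CYP2S1 and interleaved in the other 10, and they are most spread out in CYP1A1 and CYP26A1.

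Of the 5 retinoid enzymes, CYP2S1 and CYP26A1 could be tested. CYP2S1 (chr19:41193049-41207539, plus strand), an epithelial P450 that can oxidize retinoic acid, was at 12.4, 12.6 and 12.97 FPKM with HNF4A overexpression, against 11.98, 11.2 and 12.3 FPKM in controls. The groups stood apart by less than the range within either group, with a log2 difference of 0.09 (95% interval -0.05 to 0.24, limma adjusted p = 0.512). CYP26A1 (chr10:93073475-93077890, plus strand), the main retinoic acid hydroxylase and itself a retinoic acid target, was at 0.717, 1.08 and 0.501 FPKM with HNF4A overexpression, against 1.44, 2.25 and 0.781 FPKM in controls. Replicate 2 was the highest and replicate 3 the lowest of each group, and the groups overlapped. The ratio of the means was 0.515 and the log2 difference -0.46 (95% interval -0.98 to 0.05, limma adjusted p = 0.326). With 1 library left out the log2 difference ran from -0.25 without control replicate 2 to -0.68 without control replicate 3. AL358613.3, a gene on the same strand, shares 21.3% of the 100-base stretches of CYP26A1, so part of its fragments may have been assigned there. CYP26B1, the second retinoic acid hydroxylase, averaged 0.498 ± 0.262 FPKM with HNF4A overexpression and 0.416 ± 0.104 FPKM in controls. CYP27C1, a retinol desaturase of skin, was at 0.0552, 0.0506 and 0.0806 FPKM with HNF4A overexpression, against 0.200, 0.106 and 0.0993 FPKM in controls (limma adjusted p = 0.444 without the filter). CYP27C1 and CYP39A1 were the 2 of 34 P450 genes under the filter with a value above 0 in which every overexpression library stood below every control, beside 3.54% of all such genes. None stood above, beside 6.94% of all such genes. CYP26C1 did not exceed 0.00918 FPKM.

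None of the 6 steroid hormone enzymes passed the filter. CYP19A1, the aromatase that makes oestrogens, was the highest at 0.110, 0.152 and 0.276 FPKM with HNF4A overexpression, against 0.179, 0.323 and 0.293 FPKM in controls. CYP17A1 and CYP11A1, which act early in steroid synthesis, did not exceed 0.121 FPKM, and CYP21A2 did not exceed 0.0437 FPKM. CYP11B1 and CYP11B2, the adrenal cortisol and aldosterone synthases, were listed at 0. The sum of the 6 averaged 0.339 ± 0.0564 FPKM with HNF4A overexpression and 0.385 ± 0.0395 FPKM in controls (SD, n = 3 each).

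Of 4 members with little known substrates, CYP20A1 was at 6.73, 6.93 and 6.19 FPKM with HNF4A overexpression, against 7.27, 5.87 and 6.81 FPKM in controls. Its log2 difference was -0.00 (95% interval -0.21 to 0.21, limma adjusted p = 0.991), the nearest to 0 of all 13. CYP2W1, known from fetal gut and colorectal tumours, averaged 0.125 ± 0.0525 FPKM with HNF4A overexpression and 0.125 ± 0.124 FPKM in controls. CYP4X1 did not exceed 0.0923 FPKM, and CYP4Z1 was listed at 0.

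Several expressed P450 genes lay beside relatives at or near 0, while CYP2D7 with up to 1.72 FPKM lay 9296 bases from CYP2D6 with up to 0.707 FPKM. On chromosome 19, CYP2S1 with up to 12.97 FPKM begins 64682 bases after CYP2F1, and the 5 members from CYP2A6 to CYP2F1 (chr19:40843538-41128366) reached at most 0.0744 FPKM in any library. On chromosome 7, CYP3A5 with up to 6.26 FPKM is 4930 bases from CYP3A7, and the other 3 CYP3A genes reached at most 0.142 FPKM. On chromosome 10, CYP26C1 lies 3938 bases from CYP26A1 with up to 0.00918 FPKM beside 2.25 FPKM. CYP1A1 and CYP1A2, 23233 bases apart, reached 3.66 and 0.0522 FPKM. Elsewhere, the 5 CYP4 genes of chromosome 1 reached at most 0.174 FPKM (CYP4B1) and the 6 CYP4F genes of chromosome 19 at most 0.340 FPKM (CYP4F12).

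Genes listed as electron and haem partners of P450 enzymes, with EPHX1, EPHX2, PGRMC1 and PGRMC2 among them, did not pass the test. Of 11 partner genes, all tested with limma, 0 were called in the main fit and under all 15 alternatives, beside 4.79% of all tested genes in the main fit, and their median log2 difference was 0.08, beside 0.01 over all tested genes. With 11 genes, a count of 0 lies near that share. POR was at 108, 123.3 and 112 FPKM with HNF4A overexpression, against 102, 120.5 and 103 FPKM in controls (log2 difference 0.08, limma adjusted p = 0.688). FDX1 and FDXR, named after their values were seen, averaged 14.4 ± 0.663 and 11.3 ± 0.460 FPKM with HNF4A overexpression and 13.4 ± 0.760 and 11.02 ± 0.291 FPKM in controls. Of 10 genes of haem synthesis and breakdown 1 was higher and 0 lower in the limma fit, beside 3.4% and 1.39% of all tested genes, with a median log2 difference of 0.04. ALAS1, the first and rate-setting enzyme of haem synthesis, averaged 32.9 ± 1.85 FPKM with HNF4A overexpression and 35.1 ± 1.77 FPKM in controls (limma adjusted p = 0.514). HMOX2, the constitutive haem oxygenase, rose, at 50.4, 44.1 and 44.7 FPKM with HNF4A overexpression, against 36.4, 36.7 and 37.4 FPKM in controls (log2 difference 0.32, limma adjusted p = 0.0240). That call was lost without overexpression replicate 1 and without control replicate 1, 2 or 3, at limma adjusted p of 0.0525, 0.0738, 0.0739 and 0.0668.

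Among 21 regulators of P450 genes other than HNF4A, 13 could be tested with limma, and 0 were higher and 2 lower, beside 3.4% and 1.39% of all tested genes, with a median log2 difference of -0.03. Both were retinoic acid receptors. RARA was at 16.4, 16.4 and 16.9 FPKM with HNF4A overexpression, against 20.8, 19.7 and 19.9 FPKM in controls (log2 difference -0.27, limma adjusted p = 0.0323). RARG was at 9.55, 10.7 and 9.62 FPKM with HNF4A overexpression, against 13.4, 13.6 and 11.98 FPKM in controls (log2 difference -0.35, limma adjusted p = 0.0386). In both genes the groups did not overlap. Leaving out any of the 6 libraries, overexpression replicate 1, 2 or 3 or control replicate 1, 2 or 3, ended both calls, with limma adjusted p of 0.0685 to 0.101 for RARA and 0.0511 to 0.126 for RARG. AHR, the ligand-activated receptor behind CYP1A1, was at 6.29, 6.94 and 6.93 FPKM with HNF4A overexpression, against 7.43, 9.01 and 10.1 FPKM in controls. With all libraries AHR had a log2 difference of -0.34 and a limma adjusted p of 0.125, and without control replicate 1 the limma adjusted p was 0.0484. RXRA, the shared partner of many nuclear receptors, averaged 18.9 ± 0.438 FPKM with HNF4A overexpression and 17.5 ± 0.883 FPKM in controls (limma adjusted p = 0.423). NR1I2, the receptor PXR that induces CYP3A4 and CYP2B6 in liver, did not exceed 0.0118 FPKM in any library.

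CYP1A1 was set beside 7 other targets of AHR, of which 1 was higher, 0 were lower and 6 did not pass the limma test, beside 3.4% of all tested genes higher and 1.39% lower, with a median log2 difference of 0.03. ALDH3A1, an aldehyde dehydrogenase, rose to 23.6, 19.1 and 17.4 FPKM with HNF4A overexpression, against 9.74, 7.64 and 7.24 FPKM in controls (log2 difference 1.19, limma adjusted p = 0.00223). It passed under all 15 alternatives. The other targets were named after their values were seen. NQO1, a quinone reductase that NFE2L2 also controls, averaged 217 ± 33.2 FPKM with HNF4A overexpression and 154 ± 21.4 FPKM in controls (limma adjusted p = 0.0801). AHRR, the repressor that AHR induces, averaged 2.06 ± 0.730 FPKM with HNF4A overexpression and 3.36 ± 1.45 FPKM in controls (limma adjusted p = 0.369). TIPARP averaged 27.8 ± 2.99 FPKM with HNF4A overexpression and 32.1 ± 4.595 FPKM in controls (limma adjusted p = 0.414). The AHR targets had log2 differences of both signs.

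**Figure D5:**
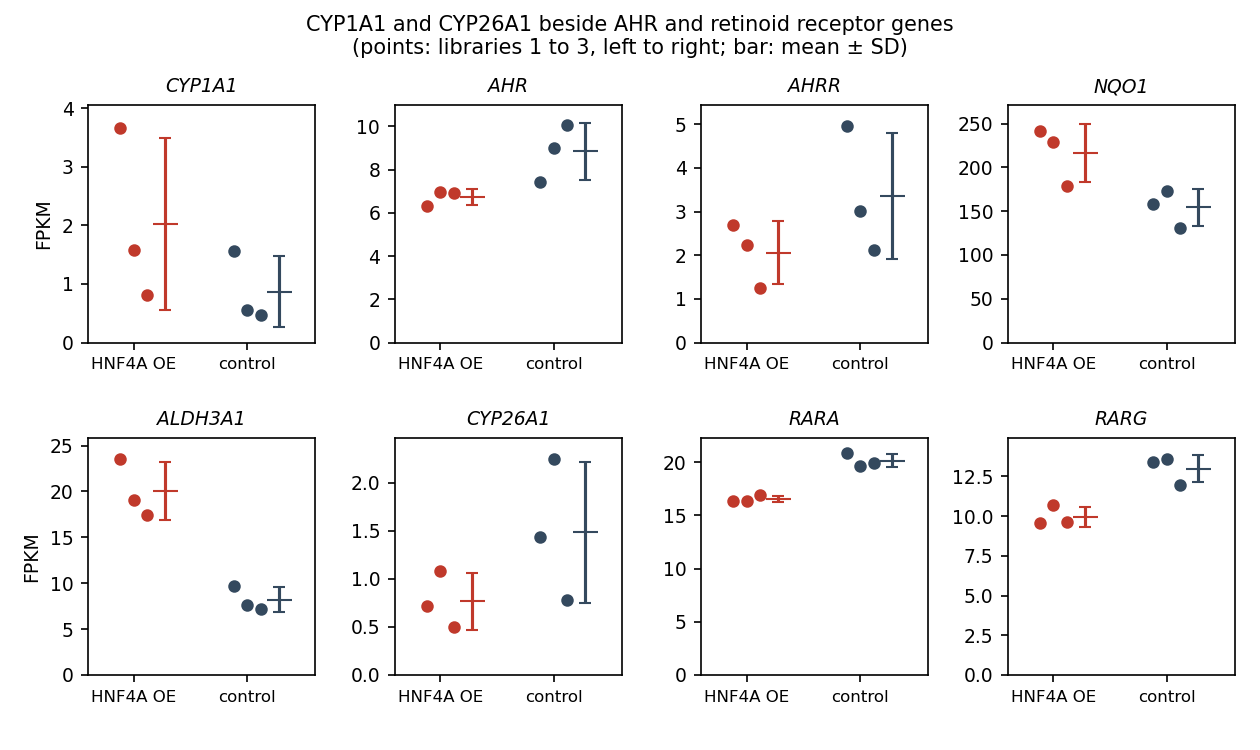
FPKM by library of CYP1A1 beside AHR and its targets AHRR, NQO1 and ALDH3A1, and of CYP26A1 beside RARA and RARG, with HNF4A overexpression (OE) left of control; points are libraries 1 to 3 from left to right and bars give the mean and SD of 3. ALDH3A1 lies at 17.4 to 23.6 FPKM in overexpression libraries and 7.24 to 9.74 FPKM in controls, while the points of CYP1A1 and CYP26A1 overlap between groups.

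A further 3 P450 enzymes, which the naming rule left out, are given for comparison. CYP51A1, the lanosterol demethylase of cholesterol synthesis, was higher than any of the 55, at 28.01 ± 1.41 FPKM with HNF4A overexpression and 26.8 ± 1.72 FPKM in controls (SD, n = 3 each; limma adjusted p = 0.694). TBXAS1, the thromboxane synthase, averaged 0.767 ± 0.125 FPKM with HNF4A overexpression and 0.825 ± 0.193 FPKM in controls, under the filter. PTGIS, the prostacyclin synthase, was listed at 0 in all 6 libraries.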

How the data were processed

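Per the labels' protocols, RNA was collected in Trizol and sequenced in pairs on an Illumina NovaSeq instrument. The authors deposited FPKM values per gene beside their own group means, fold changes and unadjusted p-values, which stand among other values in the deposited table. The build hg38 and the tools Cufflinks, TopHat, TopHat2, Bowtie, Bowtie2 and FastQC are named, per the submitters' processing notes, with no settings. The sources used here give neither strand use nor annotation nor read totals, so reads of overlapping genes, antisense partners and near-identical copies cannot be told apart, and no counting interval was computed.

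Samples were grouped by title. A name on several rows was represented by its highest row. Values were fitted as log2(FPKM + 1) with limma 3.58.1 in R 4.3.3 (lmFit and eBayes with trend, group only, two-sided), for genes of at least 1 FPKM in at least 3 of 6 libraries, with Benjamini-Hochberg adjustment over all 14106 and a threshold of 0.05. The fit was tested on simulated data. Alternatives were another pseudocount (0.1), no filter or a filter at 0.1 FPKM, upper quartile and quantile scaling, a replicate block, summed rows, no mean-variance trend, each library left out, and, added after seeing the data, pseudocount 0.1 with a filter at 0.1 FPKM. Coordinates and overlaps come from GENCODE 29 (GRCh38), and shared sequence is the percent of a gene's transcript stretches of 100 bases found in another gene. Named were the members, of which 1 enters the counts and sums but is not reported here on its own, list genes past the threshold, POR, ALAS1, AHR, NR1I2 and RXRA, and 3 P450 genes outside the rule. Members and gene lists were chosen with earlier results of these data known. Members were described by counts, with no test of the list.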

Additional observations from a re-analysis of the deposited data

How the results depend on the processing

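Of 195 values of the 13 tested P450 genes under 15 alternatives, 186 kept their direction and their side of the threshold. CYP20A1, CYP2R1 and CYP3A5, all near 0, changed sign in 8 of them: CYP2R1 to -0.0205 and CYP3A5 to -0.00189 under quantile scaling, and with 1 library left out CYP20A1 ranged from -0.0784 to 0.0551, CYP2R1 from -0.107 to 0.0975 and CYP3A5 from -0.0844 to 0.128. Replicate numbers are shared between the groups. Same-numbered libraries deviated together with correlations of 0.139, 0.0914 and 0.150, against -0.0132 to -0.124 for libraries of different numbers. These correlations were low, and the main fit did not take the libraries as pairs, although each library correlated best with its own number. With a replicate block, 1 P450 gene was called higher (CYP24A1, limma adjusted p = 0.0314), beside 4.52% of all tested genes, and CYP1A1, CYP27B1 and CYP26A1 had limma adjusted p of 0.0525, 0.0626 and 0.0793. The block gave 638 genes higher and 399 lower among all tested genes and 3 AHR targets. Without a filter 201 genes were higher and 49 lower, with 0 haem genes and 0 regulators called. No mean-variance trend gave 0 haem genes and 0 regulators. A filter at 0.1 FPKM gave 1 regulator, also with pseudocount 0.1, and quantile scaling 2 AHR targets. Leaving out 1 library gave 274 to 313 genes higher, 87 to 161 lower, 0 to 1 haem genes, 0 to 1 regulators and 1 to 2 AHR targets, beside 480, 196, 1, 2 and 1 with all libraries, and 0 P450 genes. The causes were not tested, beyond the fewer samples or the wider set of genes that some of these settings hold by construction. Scaling moved the median of all genes to 0.01 and -0.01 at most. With 3 libraries a group, intervals of the 13 genes reached from 0.145 to 0.786 on either side of the log2 difference, and FPKM under 0.1 rest on few fragments of unknown number.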
